A study of Mus musculus with 24 samples.

Results

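The regions described here lay at the loci of 4 mouse transcription factor genes of blood stem and progenitor cells: Runx1, Gata2, Erg and Lmo2. They were all regions of the 6 deposited lists that shared at least 1 bp with 4 fixed windows of mm9: chromosome 16 from 92500000 to 92930000 for Runx1, chromosome 6 from 88040000 to 88260000 for Gata2, chromosome 16 from 95480000 to 95910000 for Erg, and chromosome 2 from 103700000 to 103920000 for Lmo2. These windows held 147 of the 45155 regions in the 6 lists. Of these, 20 belonged to the GMP list, 35 to the k+ list and 37 to the k- list, and the other 34 gained, 5 lost and 16 maintained regions were derived from those lists. A window was all that tied a region to a gene. Each region may act on another gene, such as Clic6 or Setd4 beside Runx1, Rpn1 or Dnajb8 beside Gata2, Kcnj15 or Ets2 beside Erg, and Caprin1 beside Lmo2 (neighbours in the gene order of GRCm38).

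The study profiled C57BL/6 bone marrow cells by ChIP-seq of H3K27ac, H3K4me1 and H3K4me3 with input in 3 populations: granulocyte-monocyte progenitors (GMP, normal myeloid progenitors), leukemia stem cells and mature acute myeloid leukemia cells, the latter 2 from a leukemia with the MLL-AF10 fusion that was grown in culture. A second set of 12 libraries followed leukemia stem cells after 0, 24, 48 and 72 hours with A-485, which blocks the acetyltransferases p300 and CBP, but no list of regions carries a time. All 24 libraries stood alone in their group, so the lists have no replicates and the values below describe single lists. The lists give positions without scores or reads. Sequencing depth at a region is therefore unknown, and no expression was measured. The sources used here do not say which leukemia population k+ and k- stand for. Whether the GMP population held its defining markers could not be read from lists of enhancer regions, since none gives a level.

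All 4 genes encode parts of the transcription factor network that maintains blood stem cells. Runx1 binds DNA with its partner CBF-beta and is needed for blood stem cells to arise, Gata2 is a zinc finger factor needed for their survival, and Erg is an ETS family factor that supports their self-renewal. Lmo2 binds no DNA itself and bridges GATA and Tal1 factors in 1 complex. Each gene is controlled by several enhancers spread over its introns and flanks, and all have been linked to leukemia. A cell's enhancers are usually recognised by H3K4me1, with H3K27ac on the active ones.

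Erg and Lmo2 were surrounded by many leukemia regions, Runx1 by equal numbers in all 3 lists, and Gata2 by leukemia regions alone. The Erg window held 6 GMP, 13 k+ and 14 k- regions, and the Lmo2 window held 5, 12 and 10. At Runx1 each of the 3 lists had 9 regions. That equality depended on narrow regions: at 800 bp or more Runx1 held 2 GMP, 6 k+ and 7 k- regions. With regions within 1 kb joined it held 7, 8 and 8. Gata2 had 0 GMP regions, 1 k+ region and 4 k- regions. Equal numbers did not mean equal length: at Runx1 the GMP list covered 6.2 kb, k+ 10 kb and k- 13.8 kb. At Erg the covered lengths were 6.6, 23.4 and 27.4 kb in the same order, and at Lmo2 they were 4.4, 13.8 and 13 kb. Over the 4 windows k+ covered 2.76 times and k- 3.51 times the GMP length, against 4.31 and 7.01 times over the whole lists. The leukemia lists were thus less far ahead of the GMP list here than over the genome.

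**Figure D1:**
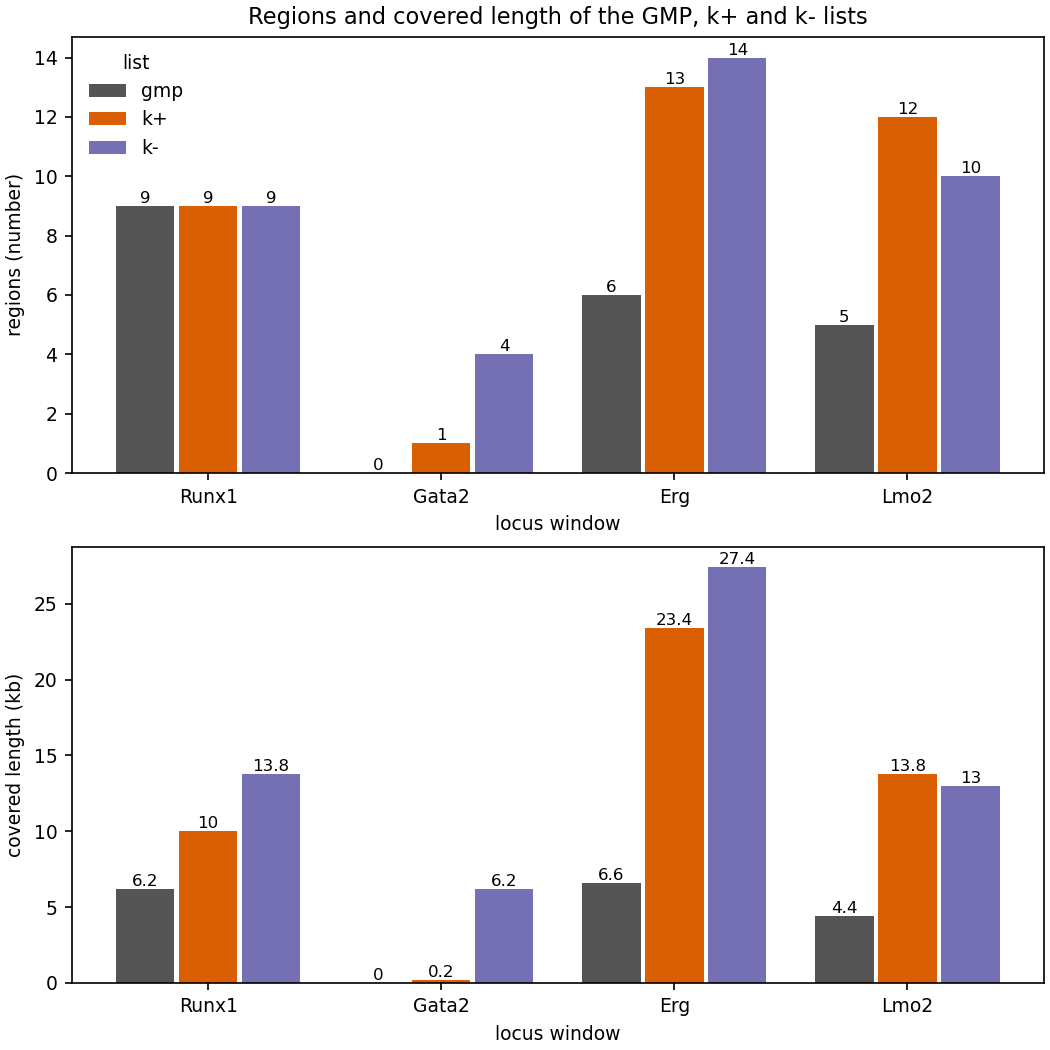
Number of regions (upper panel) and covered length in kb (lower panel) of the GMP, k+ and k- lists in each locus window; each bar is a single list without replicate. Runx1 has 9 regions in every list while its covered length goes from 6.2 to 13.8 kb, and Gata2 has no GMP region.

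The Erg and Lmo2 windows were crowded for their length in the GMP, k+ and k- lists, Runx1 most clearly in the GMP list, and Gata2 in none. When autosomes and X were divided into consecutive windows of 430 kb, 0.262% of 6107 windows held as many as the 9 GMP regions of Runx1, and 0.966% held as many as the 6 of Erg. For k+, 4.16% of such windows reached the 9 regions of Runx1 and 1.26% the 13 of Erg. For k-, 8.14% reached the 9 regions of Runx1 and 2.36% the 14 of Erg. For gained regions, 11.3% reached the 8 of Runx1 and 2.26% the 15 of Erg. The lists differ in length, so these shares describe each list and show no change between them. In windows of 220 kb, 0.385% of 11946 reached the 12 k+ regions of Lmo2, 1.82% its 10 k- regions and 0.619% its 5 GMP regions. The Gata2 window was ordinary by this count, since 26.8% of such windows held at least 1 k+ region, 12% at least 4 k- regions, and 84.5% held no GMP region. The windows were placed on known genes, and windows on other genes were not compared.

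Most GMP regions at these loci still met a leukemia region. Of the 20 GMP regions, 15 were kept and 5 were lost, which is 25% lost (exact 95% interval 8.66 to 49.1%) against 45.1% of all 3332 GMP regions. The interval includes the share of the whole list. Runx1 lost 4 of 9 GMP regions, Erg 1 of 6 and Lmo2 0 of 5. Without Runx1, the locus with the most losses, the share was 1 of 11, or 9.09% (0.23 to 41.3%), whose interval lies below 45.1%. It was 28.6% (8.39 to 58.1%) without Erg and 33.3% (11.8 to 61.6%) without Lmo2, and these intervals include 45.1%. Widths also bear on the lost share. With a minimum of 400 bp set on GMP and leukemia regions alike, 2 of 16 were lost, or 12.5% (1.55 to 38.3%), against 41.7% of the whole list. With a minimum of 800 bp on both, 0 of 9 were lost (0 to 33.6%) against 37.6%. With all leukemia regions kept, 29.8% of GMP regions of 800 bp or more were lost over the whole list. The interval of 0 to 33.6% includes that share. If both regions of a pair must share 50% of their length, 17 of the 20 count as lost, or 85%, against 86.7% of the whole list. This rule also counts as lost a GMP region that lies wholly inside a much wider leukemia region. An example is the 600 bp region at Erg from 95671201 to 95671800, inside a merged region of 8000 bp. Both shares are therefore high by construction, and their small gap cannot decide whether the loci differ from the whole list. Intervals cover counting error only, and neighbouring regions of 1 locus are not independent.

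Width went with being kept, but under the 1 bp rule a wider region has more bases with which to meet a leukemia region. The part of this rule in the trend was not tested. All 9 GMP regions of 800 bp or more at the loci met a leukemia region, as did 5 of the 7 of 400 to 600 bp and 1 of the 4 of 200 bp. Over the whole GMP list, 29.8% of the 1223 regions of 800 bp or more were lost, 49.2% of those of 400 to 600 bp and 62.5% of those of 200 bp. The intervals at the loci, 0 to 33.6%, 3.67 to 71% and 19.4 to 99.4%, include these shares. Of the 15 kept regions, 11 were met by both leukemia lists, or 73.3% (exact 95% interval 44.9 to 92.2%). Another 4 were met by k- alone, or 26.7% (7.79 to 55.1%), and 0 by k+ alone (0 to 21.8%). In the whole list these shares of kept regions were 55.3%, 31.2% and 13.6%, and the intervals at the loci include them.

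Leukemia regions met a GMP region in a larger share at Runx1 and Lmo2 than over the genome, while the intervals at Erg (63.6 to 98.5% gained) and Gata2 (39.8 to 100%) include the whole-list share. Merging k+ and k- gave 46 leukemia regions in the windows, of which 34 were gained, or 73.9% (58.9 to 85.7%), against 90.0% of all 16869 merged regions. The interval lies below the share of the whole list, but this rests on both Runx1 and Lmo2: the share was 78.8% (61.1 to 91.0%) without Runx1 and 79.4% (62.1 to 91.3%) without Lmo2, and these intervals include 90.0%. By locus, 8 of 13 merged regions were gained at Runx1, 15 of 17 at Erg, 7 of 12 at Lmo2 and 4 of 4 at Gata2. Leukemia regions matched by a GMP region were thus 5 of 13 at Runx1 and 5 of 12 at Lmo2, and 2 of 17 at Erg. With 50% of both regions shared, 93.5% were gained at the loci and 97.4% over the whole list. This rule also counts as gained a wide leukemia region that holds a whole GMP region. Both shares are thus high by construction, and the narrower difference cannot decide the question.

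Gained regions lay near a GMP region more often at Runx1 and Lmo2 than over the whole list. At the loci 14 of 34 lay within 5 kb of one, or 41.2% (24.6 to 59.3%), against 11.8% of all 15189 gained regions. The median distance was 7.8 kb at the loci and 85.2 kb over the whole list. At Runx1 6 of 8 lay within 5 kb (34.9 to 96.8%) and at Lmo2 4 of 7 (18.4 to 90.1%). At Erg 4 of 15 did, and the interval of 7.79 to 55.1% includes 11.8%. The 4 at Gata2 were between 295600 and 355200 bp from the nearest GMP region. GMP regions were themselves dense at Runx1, Erg and Lmo2, and the part of this density in the short distances was not tested.

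**Figure D2:**
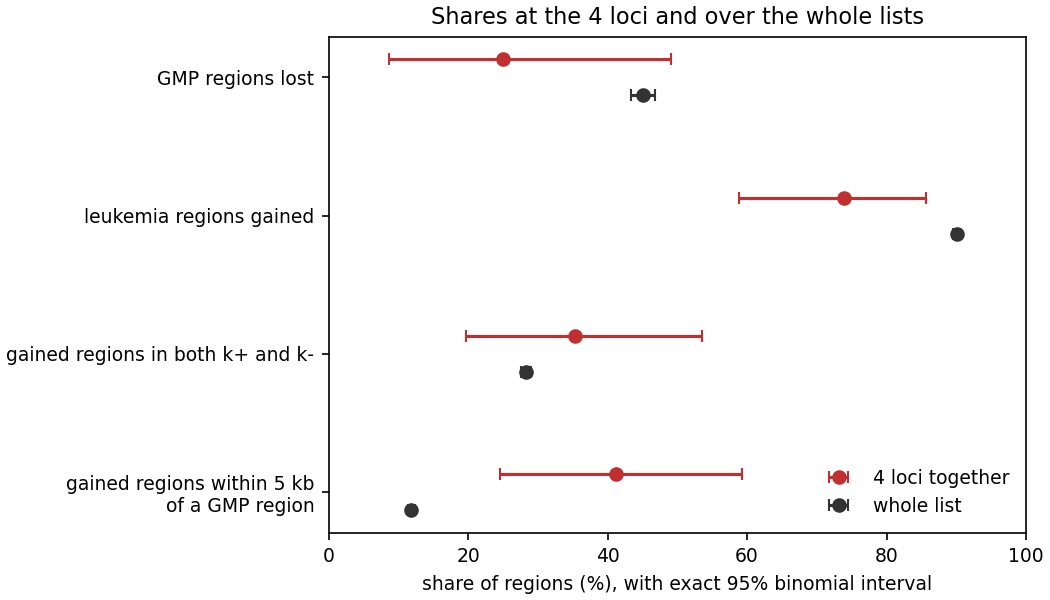
Share of regions (%) at the 4 loci together and over the whole lists, for 4 quantities; points are shares and bars are exact 95% binomial intervals, which cover counting error only. The intervals of gained regions and of gained regions near a GMP region do not reach the whole-list values of 90.0% and 11.8%, and those of lost regions and of gained regions in both leukemia lists do.

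In covered length, k+ and k- shared the largest part at Erg among the 4 loci. At Erg k+ and k- shared 18.6 of the 32.2 kb that either covered, or 57.8%. The share was 41.1% at Lmo2, 36.8% at Runx1 and 3.23% at Gata2, and 30.7% over the whole lists. In regions, 10 of 13 k+ regions met k- at Erg, 9 of 12 at Lmo2, 5 of 9 at Runx1 and 1 of 1 at Gata2. Of the k- regions, 9 of 14 met k+ at Erg, 7 of 10 at Lmo2, 5 of 9 at Runx1 and 1 of 4 at Gata2. Counted as regions, Erg therefore did not stand first. Over the 4 loci 71.4% (53.7 to 85.4%) of k+ regions met k-, and the interval includes the 61% of the whole list. Of the k- regions 59.5% (42.1 to 75.2%) met k+, against 39.5% over the whole list, which lies below the interval. The intervals of the single loci all include 39.5%: 21.2 to 86.3% at Runx1, 0.631 to 80.6% at Gata2, 35.1 to 87.2% at Erg and 34.8 to 93.3% at Lmo2. The k- regions here were also wider than their list (median 1200 bp against 800 bp), and the part of width in this overlap was not tested. Of the 34 gained regions 12 were in both lists, or 35.3% (19.7 to 53.5%), against 28.3% over the whole list. Another 9 were in k+ only (26.5%) and 13 in k- only (38.2%), and over the whole list these shares were 21.2% and 50.5%. The k- list had 1.06 times as many regions as k+ at the loci and 1.47 times over the whole lists. That small surplus rests on Gata2, without which the ratio was 0.971. At Lmo2 this ratio was 0.833, so there k+ was the longer list.

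**Figure D3:**
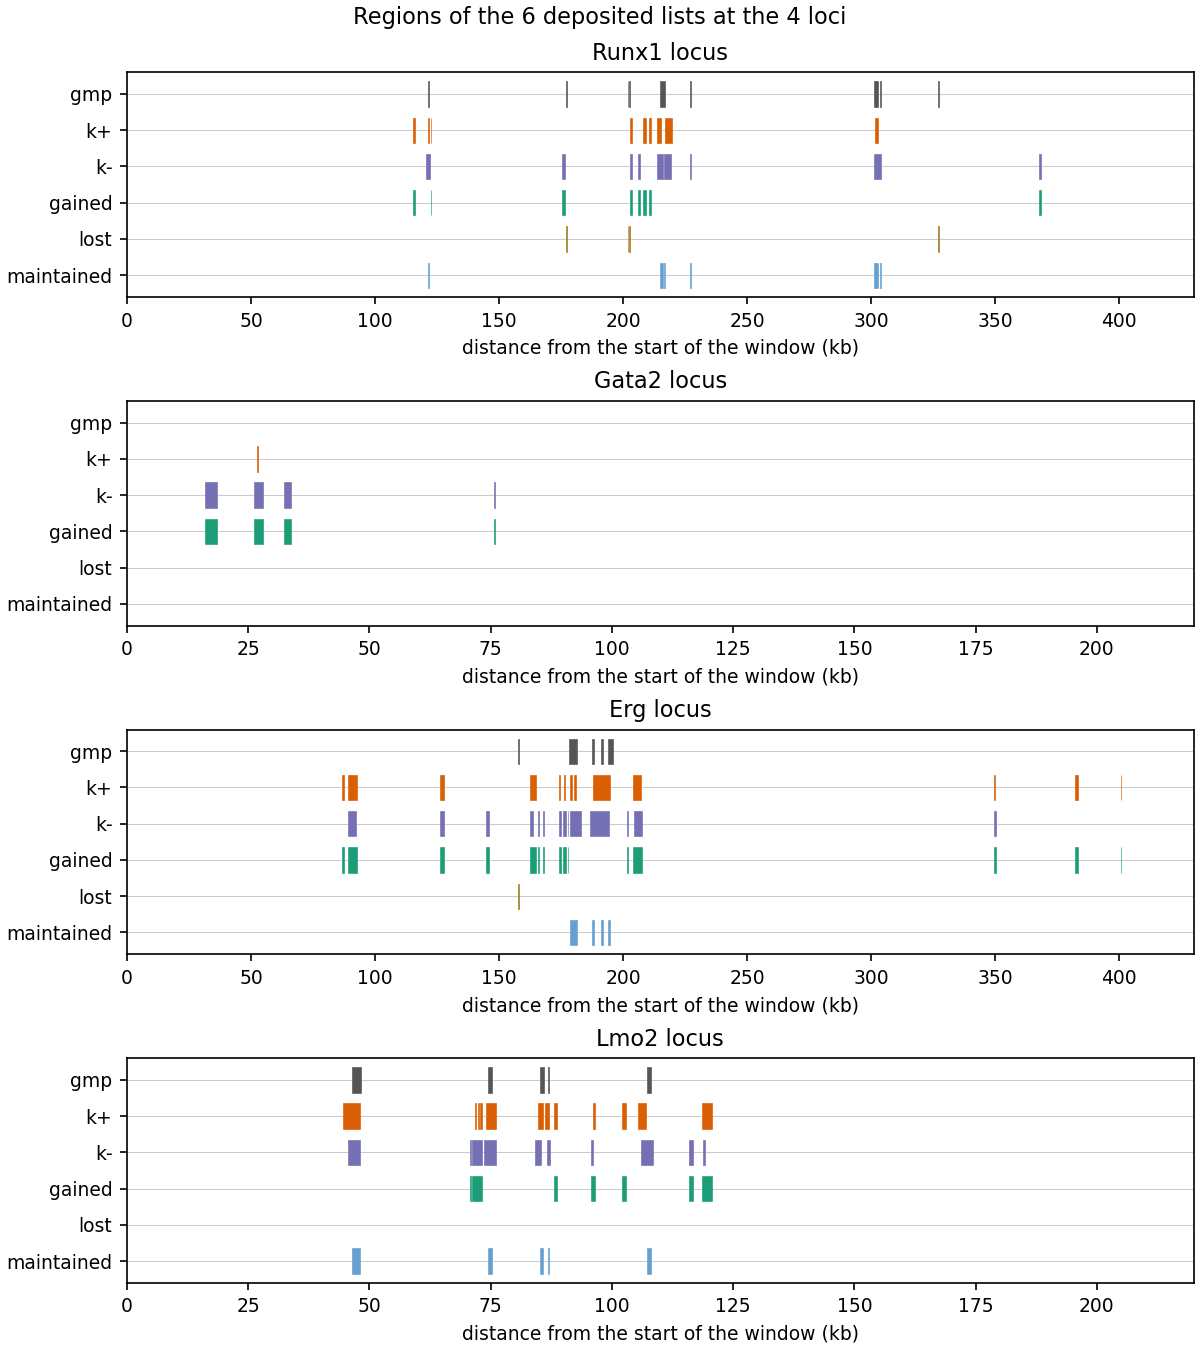
Position of every region of the 6 lists in the 4 windows; the horizontal axis is the distance from the start of the window in kb, each row is a list and each block is a region drawn to scale. Kept GMP regions coincide with leukemia regions at Runx1, Erg and Lmo2, leukemia regions at Erg reach far beyond the 38 kb that hold its GMP regions, and the Gata2 window holds leukemia regions only, all in its lower part.

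The Runx1 locus held 9 GMP regions between 92621201 and 92827400 of chromosome 16. The widest, from 92714801 to 92716800 (2000 bp), met a k+ region of 1600 bp that began at 92713801 and 2 k- regions of 2200 and 2800 bp. It was cut into 2 maintained pieces, 92714801 to 92716000 and 92716601 to 92716800. Next in width was the region from 92801201 to 92802600 (1400 bp), which k+ covered over 1200 bp and k- in full. A single k- region of 3000 bp, from 92801001 to 92804000, held both this region and a narrower one from 92803601 to 92804000, which k+ lacked. The region from 92621201 to 92621800 was kept in both lists, and the 400 bp region that began at 92727001 was kept in k- only, with the same coordinates. In all, 4200 of 6200 GMP bp at Runx1 lay in k- (67.7%) and 2200 in k+ (35.5%). Over the whole list k- also held more of the GMP bp, 45.8% against 36% in k+.

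Most lost regions at Runx1 lay next to a leukemia region. The lost region from 92702401 to 92702600 touched the gained region from 92702601 to 92703600 with no gap. Another, from 92701801 to 92702000, lay 600 bp from that gained region, and the one from 92676801 to 92677200 lay 200 bp from a gained region of 1200 bp in k-. The fourth lost region, from 92826801 to 92827400, was the only one at Runx1 far from leukemia regions, 22800 bp from the nearest. Within 1 kb counted as meeting, 2 of the 20 GMP regions at the 4 loci were lost, this one and the lost region at Erg. That is 10% (1.23 to 31.7%), and the interval includes the 31.6% of the whole list under the same rule. Over the whole list 42.9% of lost regions lay within 5 kb of a leukemia region, and at the loci 4 of 5 did.

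Gained regions at Runx1 were split between the leukemia lists. Of 8, 4 were in k+ only, 3 in k- only and 1 in both. The widest measured 1200 bp each and lay from 92675401 to 92676600 in k- and from 92708001 to 92709200 in k+. Regions of 1000 bp followed from 92615201 to 92616200 and from 92710401 to 92711400, both in k+ only, and from 92702601 to 92703600 in both. Stitched at gaps of at most 12.5 kb, the largest cluster had 4 gained regions between 92702601 and 92711400. It lay just below the widest GMP region of the locus, and its 3 k+ and 2 k- regions met in 1 place only. Of the 8529 clusters and single regions that stitching gave over the whole gained list, 9.1% held 4 or more.

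The bases before the start of these genes are shown because Runx1, Gata2 and Erg belong to 3 DNA-binding families whose motifs could recur there. RefSeq promoters (GRCm38.p6) matched 3 of the 4 genes: Runx1 with 2 starts, Gata2 with 2 and Erg with 3, and Lmo2 was not among them. In the 250 bases before each of these 7 starts, both strands were searched for the GATA motif as AGATAA or TGATAA, the RUNX motif as TGTGGT and the ETS motif as AGGAAG. The GATA motif was found before 1 start, RUNX before 0 and ETS before 2, while 16.6%, 14.0% and 29.5% of all 32851 starts held them. Both starts with a match are printed 5′ to 3′ with the matches of either strand in capitals, none of which overlap. They lie on the minus strand of GRCm38.p6, at chr16:92826075-92826324 for the outer start of Runx1 and chr16:95459349-95459598 for the innermost start of Erg, and these positions cannot be set beside the mm9 positions of the regions.
Runx1 outer start: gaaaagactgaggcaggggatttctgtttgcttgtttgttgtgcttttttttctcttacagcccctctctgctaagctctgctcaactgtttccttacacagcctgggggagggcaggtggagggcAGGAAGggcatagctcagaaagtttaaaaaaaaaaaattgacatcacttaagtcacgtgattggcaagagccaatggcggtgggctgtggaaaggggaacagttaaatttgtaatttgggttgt
Erg innermost start: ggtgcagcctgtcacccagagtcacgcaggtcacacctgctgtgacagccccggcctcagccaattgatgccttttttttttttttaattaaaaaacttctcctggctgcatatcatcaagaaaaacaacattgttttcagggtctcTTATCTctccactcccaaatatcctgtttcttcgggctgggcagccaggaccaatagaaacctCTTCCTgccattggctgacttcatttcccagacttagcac
These windows say nothing about the enhancer regions themselves, whose mm9 sequence was not used here.

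Erg had the widest leukemia regions of the 4 loci. A k+ region of 7000 bp from 95667801 to 95674800 and a k- region of 7400 bp from 95666801 to 95674200 shared 6400 bp and together spanned 8000 bp. Over the genome 0.276% of k+ and 0.498% of k- regions reached 7000 bp. In GMP the same stretch held 3 separate regions: 95667601 to 95668400 (800 bp), 95671201 to 95671800 (600 bp) and 95673801 to 95675800 (2000 bp). The leukemia regions thus filled the gaps between them, and covered 1000 bp (k+) and 400 bp (k-) of the last of the 3. Of the 1680 merged leukemia regions with a GMP region over the genome, 22 held 3 or more, or 1.31%.

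The other Erg regions of the GMP list lay nearby. The widest, from 95658201 to 95660800 (2600 bp), and the next, from 95661201 to 95661600 (400 bp), were both inside or across a k- region of 4800 bp from 95658401 to 95663200. In k+ the first met 2 regions of 800 and 1000 bp and the second met none, missing the nearer by 200 bp. Maintained pieces at Erg were 95658401 to 95660800, 95661201 to 95661600, 95667601 to 95668400, 95671201 to 95671800 and 95673801 to 95674800. The lost region, from 95637801 to 95638000, was 200 bp wide and 4400 bp from the nearest leukemia region. All 6 GMP regions thus fell within 38 kb, while k+ regions spanned 314 kb and k- regions 261 kb of the window.

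Gained regions at Erg numbered 15, and 7 of them were in both leukemia lists. The widest, from 95684001 to 95687800 (3800 bp), joined regions of 3400 bp in each list that shared 3000 bp. Next came 95569001 to 95572600 (3600 bp), where all 3200 bp of the k- region lay inside the k+ region, and 95642401 to 95645000 (2600 bp). Those from 95606001 to 95607800 (1800 bp) and from 95655601 to 95657000 (1400 bp) were also in both lists. The 5 widest gained regions of Erg were therefore all shared, and those in 1 list measured 1200 bp or less. A gained region joins the k+ and k- regions that overlap, so being shared can itself add width. The cluster with the most gained regions held 6, from 95642401 to 95657800, with 6 k- and 3 k+ regions and no GMP region in its span. It ended 400 bp before the widest GMP region of the locus, and 2.65% of the 8529 stitched groups over the genome held as many. Far from the others, 2 gained regions in k+ only lay from 95862201 to 95863400 and from 95880601 to 95880800.

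**Figure D4:**
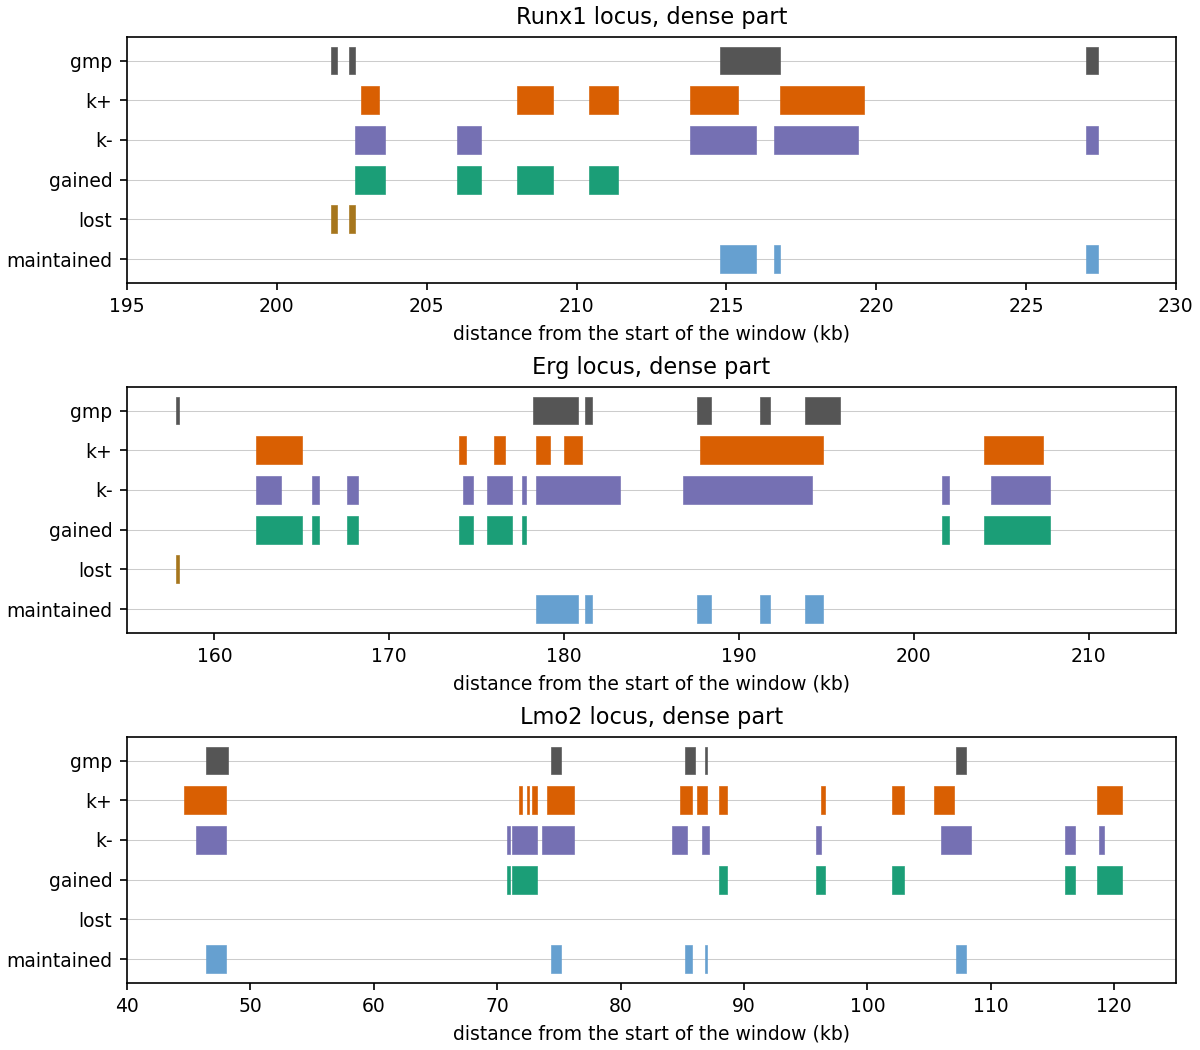
Enlarged stretches of the Runx1, Erg and Lmo2 windows, with distance from the window start in kb on the horizontal axis and 1 row per list, regions to scale. At Erg the k+ and k- regions of 7000 and 7400 bp each meet 3 GMP regions, at Runx1 the lost region of 200 bp touches a gained region, and at Lmo2 each GMP region lies on a leukemia region.

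At Lmo2 all 5 GMP regions were kept. The widest, from 103746401 to 103748200 of chromosome 2 (1800 bp), shared 1600 bp with a k+ region of 3400 bp and the same 1600 bp with a k- region of 2400 bp. The region from 103774401 to 103775200 (800 bp) lay wholly inside a k+ region of 2200 bp and a k- region of 2600 bp, and the 200 bp region from 103786801 to 103787000 was also wholly inside both. That from 103785201 to 103786000 shared 600 bp with k+ and 200 bp with k-. The last, from 103807201 to 103808000, was inside a k- region of 2400 bp and lay 200 bp from the nearest k+ region. Maintained pieces were thus 103746401 to 103748000, 103774401 to 103775200, 103785201 to 103785800, 103786801 to 103787000 and 103807201 to 103808000, covering 90.9% of the GMP bp at this locus. This was the highest share of the 3 loci with GMP regions, with 78.8% at Erg and 67.7% at Runx1, and 53.8% over the whole list.

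Gained regions at Lmo2 numbered 7, of which 3 were in both lists, 2 in k+ only and 2 in k- only. The widest were 103771201 to 103773200 and 103818601 to 103820600, of 2000 bp each. In the first, 3 narrow k+ regions of 200 to 400 bp lay inside a single k- region, and in the second a k- region of 400 bp lay inside a k+ region of 2000 bp. A region of 1000 bp from 103802001 to 103803000 was in k+ only, and one of 800 bp from 103816001 to 103816800 in k- only. The region from 103795801 to 103796600, of 800 bp, counts as shared although its k- part and its k+ part, of 400 bp each, only touch. The cluster with the most gained regions held 3, from 103788001 to 103803000, and 18.1% of stitched groups over the genome held as many. Joining regions within 1 kb left 7 of the 12 k+ regions and 4 of the 7 gained regions at Lmo2, so these counts reflect closely spaced pieces.

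At Gata2 all regions were gained, and k- supplied all of their length. The 4 regions lay from 88056001 to 88058600 (2600 bp), 88066201 to 88068000 (1800 bp), 88072401 to 88073800 (1400 bp) and 88115601 to 88116000 (400 bp) of chromosome 6. The k+ list had a single region of 200 bp, from 88066801 to 88067000, inside the second. The first 3 formed a cluster of 17.8 kb. The covered length of k- was 6.2 kb and that of k+ 0.2 kb, and a width minimum of 400 bp left k+ with 0 regions here. This contrast holds inside the window only: with 50 kb added on each side, the counts were 6 for k+, 10 for k- and 0 for GMP. Distal enhancers far upstream of Gata2 are known, but which of these regions, if any, is one of them cannot be read from mm9 positions without an mm9 annotation.

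Of the gained regions at the 4 loci, 16 of 34 lay in stitched clusters of 3 or more, or 47.1% (29.8 to 64.9%), against 42.0% over the whole list. The interval includes that share. Over the 4 loci together, regions of both leukemia lists had higher median widths than their lists, 1000 bp against 800 bp in k+ and 1200 bp against 800 bp in k-. The k+ difference was small: its median was 900 bp without Runx1. By locus the k+ median was 1000 bp at Runx1 and at Erg, 900 bp at Lmo2 and 200 bp at Gata2. The GMP median was 600 bp at the loci and in the whole list, and gained regions had a median of 1000 bp against 800 bp. The 5 lost regions had a median of 200 bp and a range of 200 to 600 bp. Maintained pieces ranged from 200 to 2400 bp.

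**Figure D5:**
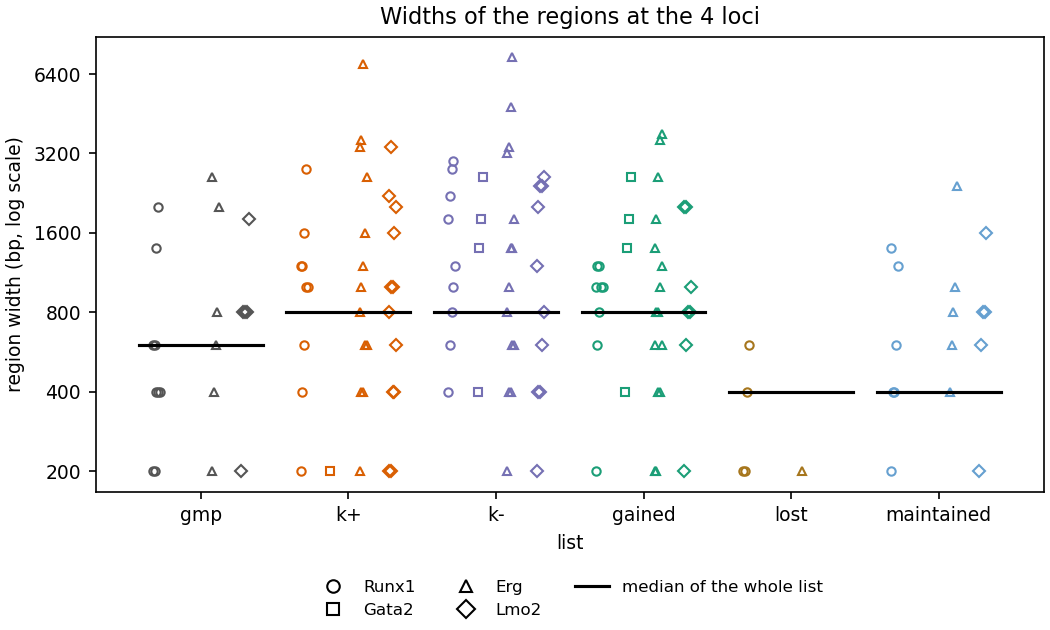
Width in bp (log scale) of each region at the 4 loci by list; symbols mark the locus and black lines the median of the whole list. The k+ and k- regions of 7000 and 7400 bp at Erg are the widest, and all 5 lost regions are at or under 600 bp.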

How the data were processed

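The data were 6 lists of regions deposited by the authors for the series as a whole, without scores; the start and end positions are of another kind than counts or signal, in bp on mm9, and all are multiples of 200 bp. BWA, Picard, MACS2, HOMER and deepTools and the build mm9 are named in the submitters' processing notes. The sources used here do not give their order and settings, or how an enhancer was called. From the positions, the gained, lost and maintained lists were rebuilt from the GMP, k+ and k- lists with identical coordinates (15189, 1504 and 1870 regions).

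Regions meeting a window or each other by at least 1 bp were counted in Python 3.11.15 (SciPy 1.17.1, matplotlib 3.10.9), with the locus counts checked with bedtools 2.31.1 and the code tested on simulated data. Shares carry exact Clopper-Pearson 95% intervals. Whole-list densities and consecutive windows ran from the chromosome start to the last region of any list, on autosomes and X. Named within each locus were all GMP, lost and maintained regions, the 5 widest gained regions and the largest gained cluster. The Runx1 and Erg promoters, distances and further single regions were chosen after their values were seen. The members, windows and comparisons were chosen with earlier results of these data known. With 1 list per population no test between lists was made. Other genes of the same network were not analysed here, nor was read signal, as no mm9 annotation or genome was used. Positions are counted from 1; the windows are given as set.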

Additional observations from a re-analysis of the deposited data

How the results depend on the processing

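No paired analysis was possible because no group holds more than 1 sample, and leaving out a replicate was not applicable. Of 261 alternative values, 33 moved, by more than 1.5 times for counts, lengths, widths and ratios or outside the exact interval for shares. The k- to k+ ratio turned, from 1.06 to 0.971 without Gata2. Shares based on few regions have wide intervals: GMP regions lost were 10% within 1 kb, 12.5% at 400 bp or more and 9.09% without Runx1, all inside the interval of the main 25%. Gained regions in both lists were 23.5% with 50% shared, and clustered gained regions 30.4% from 800 bp, each inside the interval of its main value. Requiring 50% of both regions gave 85% of GMP regions lost and 93.5% of leukemia regions gained, since GMP regions wholly inside wide leukemia regions then count as unmatched. Regions of at least 400 bp left 2 lost regions. Regions of at least 800 bp left 9 GMP, 21 k+, 0 lost and 10 maintained regions and 0% of GMP regions lost, with medians of 1400 bp in GMP and 1600 bp in k+, by construction of the width minimum, and 17.4% of gained regions in both lists. Stitching at 5 kb put 29.4% and at 25 kb 70.6% of gained regions in clusters, again by construction. Gained shares without Runx1 or Lmo2 stayed inside the main interval, while their own intervals reached the whole-list share. Keeping only regions wholly inside the windows changed none of the values over all loci. Windows extended by 50 kb moved 3 counts, all at Gata2: 6 k+, 10 k- and 9 gained regions. The lists hold no scores, so what calling depth did to the counts was not tested.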

Other observations

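Further leukemia regions lay just outside 3 of the windows, and none of these met a GMP region. Over the whole list 90.0% of merged leukemia regions met none, so this does not set the flanks apart. Within 50 kb below the Gata2 window lay 5 k+, 6 k- and 5 gained regions of chromosome 6. The widest gained one ran from 88013601 to 88021800 (8200 bp), wider than any gained region inside the 4 windows. It joined a k+ region of 7800 bp with 2 k- regions of 2800 and 4800 bp. All 5 of these gained regions met both k+ and k-, against 28.3% of the whole gained list. Inside the window 1 of 4 did, with an interval of 0.631 to 80.6%. These few regions were named after their values were seen. Rpn1 is the nearest protein-coding neighbour of Gata2 on the lower side in GRCm38, and which gene these regions act on was not tested.

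Above the Erg window, on the side of Ets2, 2 gained regions lay from 95929001 to 95931000 and from 95950201 to 95951200 of chromosome 16, both in k+ and k-. Below the Lmo2 window, on the side of Caprin1, lay a gained region of both lists from 103673201 to 103674600 and a k- region of 400 bp from 103679801 to 103680200 of chromosome 2. Both flanks of the Runx1 window held 0 regions of all 6 lists within 50 kb.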
